A study of Mus musculus with 8 samples.

Results

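Macrophages at the borders of the brain were picked out of 4 single-cell libraries by a rule on 4 transcripts, so the members were chosen by their measured RNA counts. A cell was taken as a member if it held at least 1 UMI (unique molecular identifier, 1 counted RNA molecule) in 3 or more of Mrc1, Cd163, F13a1 and Cbr2. The rule found 552 members among the 24143 cells that passed the filters and were not called hashtag doublets, a share of 2.29%. Of these members 263 held all 4 transcripts and 289 held 3. Because the rule reads the same RNA counts as the rest of the data, the levels of the members against the other cells are given as a description, with no test.

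Border-associated macrophages are the resident macrophages of the meninges, the perivascular spaces and the choroid plexus. They share with microglia a dependence on signalling through the CSF1 receptor, but they lie outside the parenchyma, where they take up proteins, lipids and debris from fluid through scavenger receptors and C-type lectins. Most express the mannose receptor, and subsets have been described that differ in the hyaluronan receptor LYVE1 and in class II antigen-presenting molecules. Of the rule transcripts, Mrc1 encodes the mannose receptor CD206, Cd163 the scavenger receptor for haptoglobin bound to haemoglobin, F13a1 the A subunit of coagulation factor XIII, and Cbr2 a carbonyl reductase. In GRCm38 with the GENCODE annotation the genes lie on chromosome 2, 14229392 to 14332057, plus strand (Mrc1), chromosome 6, 124304656 to 124330527, plus strand (Cd163), chromosome 13, 36867178 to 37050244, minus strand (F13a1) and chromosome 11, 120729489 to 120732114, minus strand (Cbr2).

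The study followed microglia that return after depletion. All mice were females that carried GFP-M together with the alleles Cx3cr1-CreERT2fl/fl and Rosa26-tdTomatotg/tg. Cx3cr1 drives the inducible recombinase and is expressed in microglia and in other myeloid cells. Depleted mice were given BLZ-945, which inhibits CSF1R kinase, at 200 mg/kg per day in peanut butter for 14 or 21 days, followed by 7 days without treatment, and controls were given peanut butter alone. Each of the 4 libraries pooled 4 animals: a control and a repopulated mouse aged 3 months, and a control and a repopulated mouse aged 12 months. Brains were kept in sucrose for 48 h, frozen, dissociated and sorted for the myeloid surface protein CD11b, a sort that does not separate microglia from macrophages, although the labels call the cells microglia.

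Animals were told apart by antibodies that carry a hashtag, a short DNA barcode. The 4 deposited barcodes are shown because every comparison between animals rests on them.
HTO1: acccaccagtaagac
HTO2: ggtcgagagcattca
HTO3: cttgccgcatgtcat
HTO4: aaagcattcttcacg
Any pair of these 15-base barcodes differs at 11 to 13 positions. The reference names HTO3 and HTO4 alike, and which hashtag marks which condition is not given in the sources used here. Hashtags were therefore compared only as hashtags, and no comparison of control with repopulated mice, or of young with old mice, was made. Each hashtag in a library is 1 animal, and the p-values of comparisons between hashtags are set against the spread between these animals. HTO3 held 0.283% of the hashtag UMIs in library 1 and HTO2 held 0.33% in library 4; both were left out, so that 14 animals remained. This choice decides the calls of library 4: with all 4 hashtags in the demultiplexing, 1477 of its 1490 HTO1 cells, and all 180 HTO1 members among them, were called doublets, and 623 cells without a call became HTO1. The shares of the 14 animals and the counts of genes between hashtags are given under both sets of calls. The deposited libraries held 19440846, 82356438, 107811899 and 114306090 gene UMIs, and 2363, 6547, 8206 and 7027 cells were kept. Libraries 1 and 2 shared 459 cell barcodes, 15.5% of those of library 1, against 8 to 24 for any other pair, but only 5 members had a barcode that also occurred in another library.

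The members made up 1.61, 1.54, 2.11 and 3.42% of the kept cells of libraries 1 to 4, a mean of 2.17% ± 0.869 (SD, n = 4). The exact 95% (Clopper-Pearson) intervals, which cover counting error only, were 1.14 to 2.2%, 1.26 to 1.87%, 1.81 to 2.44% and 3.0 to 3.87%. The share of library 4 lay above the intervals of the others, but with all 4 hashtags in the demultiplexing the shares were 1.28, 1.54, 2.11 and 1.05%, and that of library 4 was the lowest. The members were deeper than the other cells, with a median of 6500.5, 4822, 6605 and 12930 UMIs against 5989, 4314, 5997 and 9117. The ratio of the medians was 1.09, 1.12, 1.1 and 1.42 in libraries 1 to 4. When each cell was thinned to 1000 UMIs before the rule was applied, the mean share was 0.657%, so its size depends on depth.

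Cd163 was the transcript that members lacked most often. It had no UMI in 188 of the 552 members, against 67 for Cbr2, 23 for F13a1 and 11 for Mrc1. The rule transcripts summed to 4558, 4002, 2424 and 1752 counts per 1000000 UMIs of the class (CPM) in the members of libraries 1 to 4, against 9.91, 22.4, 16.3 and 21 in the other cells, values that the rule fixed. Just inside the threshold, cells with 3 of the 4 transcripts carried the border markers outside the rule at 8125, 10633, 6492 and 5642 CPM in libraries 1 to 4. Just outside it, the 10, 35, 104 and 127 cells with 2 carried them at 3178, 4218, 3297 and 3155 CPM, and cells with none at 1943, 1598, 1591 and 1712 CPM.

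The members were compared with the other cells for 25 further markers of border macrophages. This list was chosen with earlier results of these data known, so it is no independent check of the label. The sums also rest mostly on HTO1 and HTO2, with 296 and 154 members against 27 and 56 for HTO3 and HTO4. Of the 25, 20 were at least 2-fold higher in the members than in the other cells of every library, none was lower, and their median log2 ratio was 4.65. Over all 8047 genes compared, 195 (2.42%) were at least 2-fold higher in every library, 9 (0.112%) were at least 2-fold lower, and the median log2 ratio was -0.05. Ratios are of CPM with 1 added, and genes had at least 10 CPM in the mean over the library sums of both classes together. The sort, the dissociation and the pooling were shared by both classes. The markers named but not higher in every library were Colec12, Tgfbi, Cd36, Hpgd and Slc40a1. Hpgd, a prostaglandin dehydrogenase, stood at 518, 481, 536 and 575 CPM in the members and at 514, 426, 410.1 and 405 in the other cells, and Slc40a1, the iron exporter ferroportin, at 169, 114, 134 and 144 against 117, 67.6, 62.6 and 75.1.

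Lyve1, the hyaluronan receptor, ranked first when genes were ordered by the ratio in the library where it was smallest. The ranking took genes with at least 50 CPM in the mean of the higher class and at least 10 UMIs in each library in that class. It stood at 586, 489, 160.5 and 169 CPM in the members of libraries 1 to 4 and at 0.0639, 0.346, 0.455 and 0.443 CPM in the other cells, 111 to 552 times higher. Cd209f, a C-type lectin of the DC-SIGN family, stood at 395, 369, 247 and 120.5 CPM against 0.448, 0.247, 0.885 and 0.327. Its relatives Cd209g and Cd209b were 31 to 78.1 and 17.6 to 92.2 times higher. Folr2, the folate receptor beta, stood at 413, 397, 203 and 121 CPM against 2.05, 2.94, 3.68 and 5.78. Pf4, a platelet chemokine that macrophages of this kind also express, stood at 1891, 1871, 1218 and 946 CPM against 7.48, 60.4, 82.9 and 65.5, and Ms4a7, a membrane protein of the tetraspanning MS4A family, at 729.7, 791, 399.9 and 277 against 17.2, 35.2, 12.6 and 17.3.

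**Figure D1:**
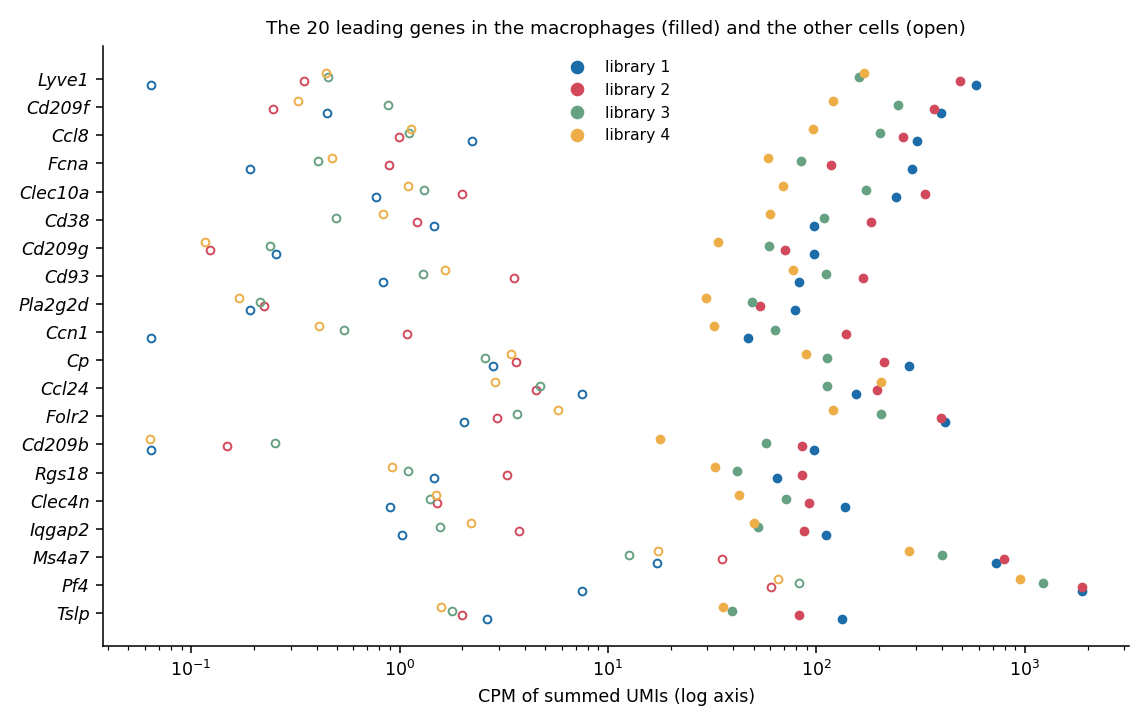
CPM of summed UMIs (horizontal log axis) of the 20 genes with the highest ratio of members to other cells in the library where that ratio was smallest. Genes ranked had at least 50 CPM in the mean of the higher class and at least 10 UMIs in each library in that class. There is 1 point per library, filled for the macrophages and open for the other cells. Lyve1 stood at 160.5 to 586 CPM in the macrophages and at 0.0639 to 0.455 CPM in the other cells, and library 4 was often the lowest filled point.

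The other leading genes fell into a few roles. Clec10a and Clec4n encode lectins that bind sugars of glycoproteins and of microbes, and were 33.3 to 137 and 17.5 to 72.6 times higher; Fcna, a ficolin of the lectin pathway of complement, was 40.6 to 242 times higher. The chemokines Ccl8 and Ccl24 were 45.4 to 132 and 18.2 to 52.9 times higher, and the cytokine Tslp 14.2 to 37 times. Cd38, an enzyme that consumes NAD, was 33.1 to 83 times higher and Cp, the copper-bearing ferroxidase ceruloplasmin, 20.4 to 72.8 times. Cd93, Pla2g2d, Ccn1, Rgs18 and Iqgap2 completed the 20, and the smallest ratio among these in any library was 16, for Iqgap2.

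Of 16 scavenger and endocytic receptors compared, 10 were higher in every library. All 10 are among the 25 border markers, so they are no separate finding. Genes of other lists, such as Cp, Maf, Gas6, Pf4 and Ms4a7, are among those markers too. Stab1, which clears modified proteins, stood at 1208, 1045, 739 and 615 CPM against 153, 117, 125 and 138, and Dab2, an adaptor of endocytosis, at 1107, 876, 615 and 551 against 14.9, 63.1, 78.1 and 109. Siglec1, which binds sialic acid, was 4.0 to 21.1 times higher, Timd4, a receptor for phosphatidylserine on dying cells, 12.4 to 64.2 times, and the lectin Mgl2 12.1 to 44.8 times. Marco had no UMI in any member. Of 13 genes of iron and heme handling, Cp and the biliverdin reductases Blvra (2.03 to 3.34 times) and Blvrb (2.95 to 4.45 times) were higher.

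Lipid carriers were higher as well. Apoe, the lipid carrier, stood at 38671, 41373, 20459 and 14418 CPM in the members of libraries 1 to 4 against 5549.8, 5629.7, 3007 and 4278 in the other cells, 3.37 to 7.35 times higher. Pltp, the phospholipid transfer protein, was 10.7 to 24.7 times higher and Plin2, which coats lipid droplets, 2.08 to 3.1 times. The other 9 of 12 lipid genes were not 2-fold higher in every library. Of 14 chemokines, Ccl7, Ccl8, Ccl24 and Pf4 were higher, and of 8 complement genes only C4b, at 341, 288, 129 and 77.1 CPM against 7.16, 7.64, 3.22 and 6.9. Ms4a4a, Ms4a6b, Ms4a6c and Ms4a7 were higher of 6 members of their family.

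Among 19 transcription factors the large Maf protein gene Maf stood at 2552, 1980.1, 1538 and 1366 CPM against 962, 579.7, 514 and 622, and the Krüppel-like factors Klf2 and Klf4 were 3.03 to 7.13 and 3.86 to 8.16 times higher. Immediate early genes, which are induced within minutes by stimuli that include tissue dissociation, were higher for 5 of 13, namely Fos, Fosb, Dusp1, Atf3 and Nr4a1. Fos stood at 3232, 3781, 2739 and 1494 CPM in the members and at 437, 515, 453 and 508 in the other cells, whose values did not reach those of the members in any library. Growth factor genes Gas6, a ligand of the TAM receptors, and Bmp2 were 3.06 to 8.55 and 25.9 to 75.9 times higher. Bmp2 did not reach the UMI limit of the ranking of leading genes in library 1. No gene of the lists for disease-associated microglia, interferon response, cytokines, cell cycle or heat shock passed the 2-fold rule in every library, in either direction. Without library 4 the number of genes lower in members was 58 in place of 9, and with all 4 hashtags in the demultiplexing 117 genes were higher in place of 195.

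Only 9 genes were at least 2-fold lower in the members of every library. Ttr, transthyretin of the choroid plexus epithelium, stood at 14.4, 10.1, 3.88 and 14 CPM against 167, 1023, 86.8 and 317 in the other cells. Gpr84, a receptor that microglia express, stood at 21.6, 10.1, 58.2 and 62.6 against 107, 108, 148 and 139, and Igkc, an immunoglobulin light chain of B cells, at 10.8, 1.68, 0 and 0.245 against 264, 27.4, 5.07 and 66.5. Summed over the list of 14, microglia markers were lower in the members of each library, at 9968, 5145, 13754 and 13831 CPM against 24626, 17752, 16436 and 16728, with a median log2 ratio of -0.997 against -0.05 over all genes compared. By the 2-fold rule for each library 1 of the 14, Gpr84, was lower. P2ry12, the purinergic receptor of resting microglia, stood at 1114, 330.0, 1258 and 1481 CPM in the members and 2583, 1447, 1322 and 1445 in the other cells.

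Microglia RNA in the members was unevenly spread between cells. The UMIs of 8 microglia markers (P2ry12, P2ry13, Tmem119, Sall1, Siglech, Gpr34, Olfml3 and Sparc) were counted per 10000 UMIs of each cell, and a border of 50 was set after the values had been seen. In all, 245 of 552 members (44.4%) held 50 or more, and 23 lay within 10 of that border. The share was 21.1, 7.92, 45.1 and 62.9% in libraries 1 to 4, so libraries 3 and 4 were above libraries 1 and 2. Among the HTO1 members of library 4 it was 75.6%, while their median, 88.6 per 10000, was below that of the other HTO1 cells of the library, 142. These HTO1 members are the cells that became doublets with all 4 hashtags in the demultiplexing. In HTO4 the other cells had medians of 27.5 to 92.7 per 10000, below the 121 to 156 of HTO1 and HTO2. Whether such cells are mixtures of cells, hold free RNA or express both programs was not tested.

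**Figure D2:**
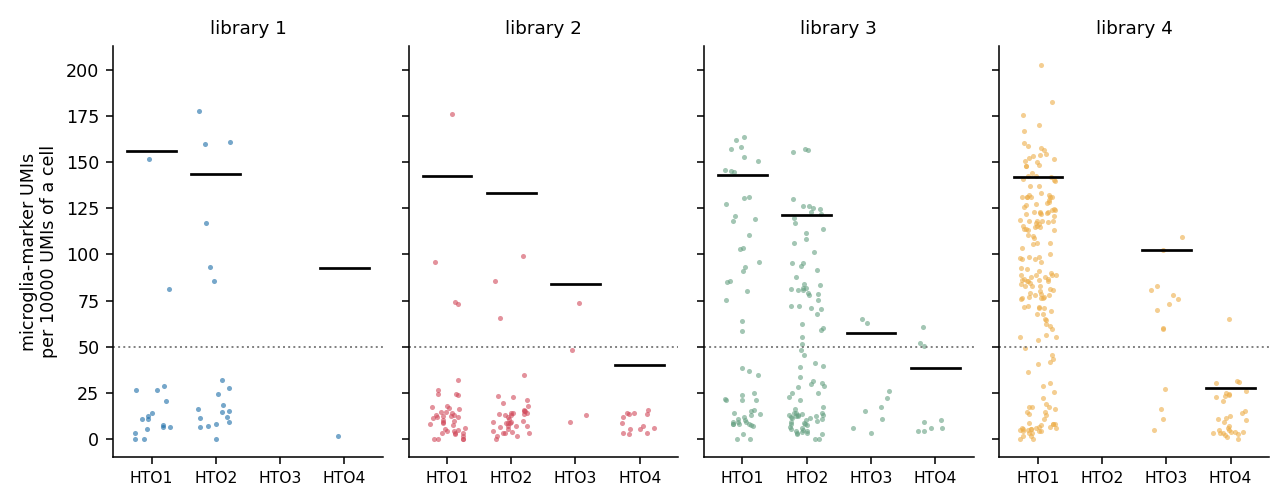
Microglia-marker UMIs per 10000 UMIs (vertical axis) of each macrophage, by hashtag and library; 1 point is 1 cell, black bars are the medians of the other cells of the same animal and the dotted line is at 50. The points fall into a low and a high band, and 245 of 552 members lie at or above the line, most of them in libraries 3 and 4.

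The 307 members under 50 were compared with the other cells in the same way. Of 7939 genes compared, 236 (2.97%) were at least 2-fold higher and 240 (3.02%) at least 2-fold lower in every library. Microglia markers were lower for 12 of 14, but 8 of the 14 set the border, so their low level in these members follows from the choice and is no finding. The border markers gave the same count as before, 20 of 25, with a median log2 ratio of 4.99. Lyve1 stood at 767, 523, 246 and 173 CPM in these members.

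Markers of other blood and brain cells were counted in the members as sums over each list. Monocyte markers summed to 68.3, 129, 276 and 77.1 CPM, against 83.5, 216, 144 and 66.4 in the other cells, and T or NK cell markers to 0, 0, 67.3 and 35.3 CPM. Neutrophil markers summed to 7.19, 10.1, 745 and 1175 CPM, against 127, 1701, 722 and 392 in the other cells, so neutrophil RNA was present in the members of libraries 3 and 4. B cell markers summed to 216, 164, 209 and 215 CPM, although Cd79a and Ms4a1 had no UMI in any member. Cldn5 of endothelium, Pdgfrb and Rgs5 of pericytes and Folr1 of choroid plexus epithelium also had none. The dendritic cell genes Xcr1 and Clec9a had no UMI, but Cd209a, which is used to mark one kind of dendritic cell, stood at 208, 83.8, 66 and 29 CPM against 2.05, 3.53, 2.73 and 1.55.

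Class II genes, which present peptides to CD4 T cells, separated the members into a minority that carried most of the signal. H2-Aa stood at 1175, 886, 530.0 and 388 CPM in the members and 107, 244, 97 and 87.2 in the other cells, and H2-Ab1, H2-Eb1 and the invariant chain Cd74 were likewise at least 3.24 times higher in every library. Yet 57.9, 51.5, 39.3 and 39.6% of the members of libraries 1 to 4 held no UMI of these 4 genes, against 70.6, 69, 61.6 and 57.8% of the other cells. The 31.6, 18.8, 22.5 and 17.1% of members with at least 20 such UMIs per 10000 held 99.6, 97.6, 94.9 and 94.4% of all class II UMIs of the members.

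Lyve1 had a UMI in 50, 49.5, 35.8 and 40.4% of the members and in 0.043, 0.155, 0.274 and 0.324% of the other cells of libraries 1 to 4, at the median depths given above. After every member was thinned to 2000 UMIs, which left out 4, 8, 9 and 4 shallower members, class II at 5 or more UMIs was found in 14.3, 2.56, 8.57 and 17% of the members with a Lyve1 UMI. It was found in 40, 29.6, 27.1 and 17.5% of those without one. The first share was lower in 4 of 4 libraries, by 0.439 to 27.1 percentage points, and the mean difference was -17.9 ± 12.3 (SD, n = 4). A 2-sided exact sign-flip permutation test gave p = 0.125, the smallest that 4 libraries allow. In library 4 the shares were close, and among its members under 50 microglia-marker UMIs the order was the opposite, 30% against 23.1%.

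Over the 10 animals with at least 10 members, the genes whose log2 CPM followed the summed class II level most closely, among 3014 searched, were B3galnt1 (Pearson r 0.961), Tut4 (0.944), Ctnnd1 (0.94), Sult1a1 (0.938) and Maf (0.938). These are descriptions over animals that share libraries and differ in depth. Maf ranged from 828 to 3064 CPM over these animals.

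The members were not spread evenly over the hashtags. They made up 1.93, 2.09, 3.33 and 12.1% of the HTO1 cells of libraries 1 to 4, and 2.6, 2.55 and 4.76% of the HTO2 cells of libraries 1 to 3. They made up 0.346, 0.507 and 0.516% of the HTO3 cells of libraries 2 to 4 and 0.192, 1.31, 0.807 and 3.09% of the HTO4 cells of libraries 1 to 4. In each library every share of HTO1 and HTO2 was above every share of HTO3 and HTO4. With all 4 hashtags in the demultiplexing the shares of libraries 2 and 3 were as given. In library 1 they were then 1.38% for HTO1, 2.22% for HTO2 and 0 of 424 cells for HTO4, which allows a share of up to 0.708%. The order was lost in library 4, where 3 of 636 HTO1 cells (0.472%), 10 of 2331 HTO3 cells (0.429%) and 30 of 968 HTO4 cells (3.1%) were members. An exact permutation test of the spread between hashtags, with labels permuted within libraries, gave p = 0.00926 over 20736 permutations. Without library 2 or library 3 the exact permutation test gave p = 0.0648 and p = 0.081. A permutation test with 100000 random permutations of the labels over all animals gave p = 0.0154. With all 4 hashtags in the demultiplexing, an alternative chosen after seeing the data, the exact permutation test gave p = 0.126, so the call does not hold under those hashtag calls.

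Depth and microglia RNA of the cells moved with these shares, and their part in the result was not tested. Other cells of HTO3 and HTO4 were deeper, with medians of 6561 to 37299 UMIs, against 3829 to 11015 in HTO1 and HTO2, although in library 4 HTO3 (9937) was below HTO1. After thinning to 1000 UMIs the permutation test gave p = 0.00135. Members then made up 0.688, 1.22, 1.08 and 2.15% of the HTO1 cells of libraries 1 to 4. In HTO2 of libraries 1 to 3 they made up 1.18, 1.61 and 1.22%. HTO3 of libraries 2 to 4 then held 0, 0 and 2 members, and HTO4 of libraries 1 to 4 held 0, 2, 0 and 1. In HTO4 of library 4 that was 0.0965% of 1036 cells. The HTO1 share of library 4, 12.1%, included 136 of the 245 members with microglia RNA. Members under 50 microglia-marker UMIs, as a share of all cells of the hashtag, made up 1.7, 1.9, 1.72 and 2.95% in HTO1, 1.82, 2.36 and 2.58% in HTO2, 0.26, 0.395 and 0.147% in HTO3 and 0.192, 1.31, 0.538 and 2.99% in HTO4. The exact permutation test without the members at or above 50, which then also left the cells counted, gave p = 0.0305. On that count HTO1 of library 4 stood at 3.25% and HTO4 of library 4 at 2.99%.

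**Figure D3:**
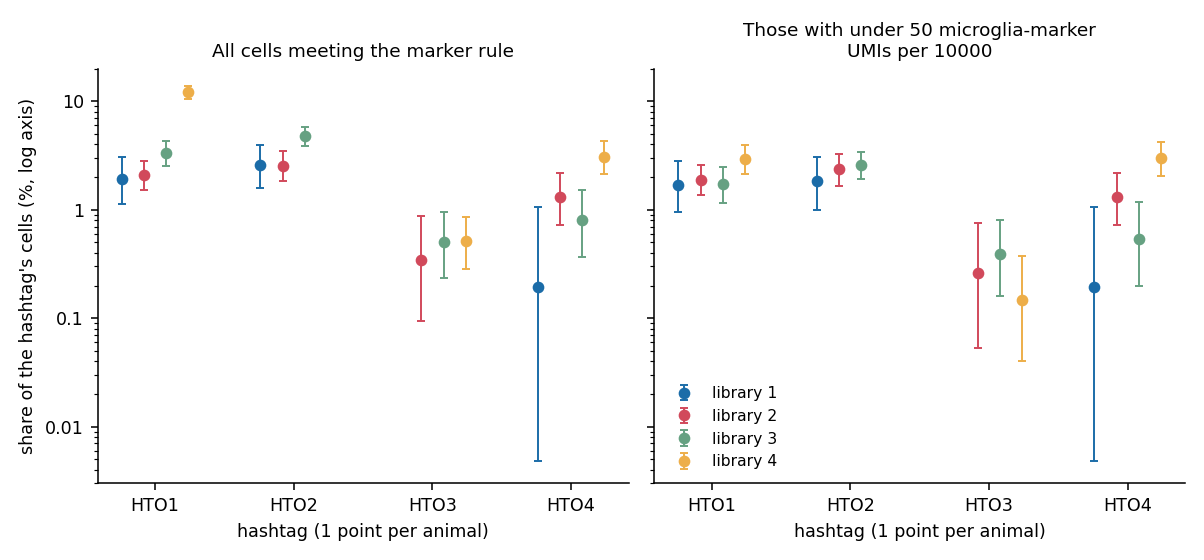
Share of the cells of a hashtag that met the marker rule (vertical log axis, %), for all members (left) and for those under 50 microglia-marker UMIs per 10000 (right), both over all cells of the hashtag; 1 point is 1 animal, bars are exact 95% intervals and colours are libraries. HTO1 of library 4 stands at 12.1% on the left and at 2.95% on the right, while all HTO3 points stay at or below 0.516%.

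Members also differed by hashtag in what they expressed, and HTO4 against HTO2 gave the widest contrast. The numbers behind it are small. HTO1 held 17, 43, 56 and 180 members in libraries 1 to 4 and HTO2 held 20, 40 and 94 in libraries 1 to 3, while HTO3 held 4, 9 and 14 in libraries 2 to 4 and HTO4 1, 14, 9 and 32 in libraries 1 to 4. Only the 10 animals with at least 10 members entered the tests, which were edgeR's quasi-likelihood tests on UMI sums with library as a block and Benjamini-Hochberg adjustment over 5691 genes. HTO4 thus rested on libraries 2 and 4, and library 2 alone held both HTO2 and HTO4. The fit left 3 residual degrees of freedom. All hashtags shared an estimate of the spread, which edgeR drew towards that of other genes. Without library 2 or without library 4, HTO4 was 1 animal, whose spread was taken from the other hashtags. Members of HTO4 had medians of 12390 and 36192.5 UMIs in those libraries, against 4789 to 8012 in HTO2, and hashtag and depth cannot be told apart.

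Between HTO4 and HTO2 1174 genes (20.6%) passed an adjusted p of 0.05, of which 591 (10.4%) were higher and 583 (10.2%) lower in HTO4. Of the 25 border markers 13 were lower and none higher, and over the alternatives 11 to 16 were lower and 0 to 3 higher. MHC class II genes were lower for 4 of 7, immediate early genes for 13 of 13 and interferon response genes for 8 of 12, with none higher. The interferon count was 1 by DESeq2 and without library 4, 2 without library 3, and 5 without library 2. Genes of disease-associated microglia were higher for 7 of 12 and cell cycle genes for 6 of 12, with none lower. Neutrophil markers were lower for 3 of 7 (S100a8, S100a9 and Retnlg). Their sum stood at 6.17, 10.1 and 1510.1 CPM in the HTO2 members of libraries 1 to 3 and 10.8 and 3.64 in the HTO4 members of libraries 2 and 4, so it was high in the HTO2 animal of library 3 alone. The part of this RNA in the other calls was not tested, beyond the count without library 3. The number of genes called was 619, 559 and 505 without libraries 2, 3 and 4, 525 by DESeq2, 714 with all 4 hashtags in the demultiplexing, and 499 among members under 50 microglia-marker UMIs.

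The lectin Cd209f was absent from the HTO4 members. It stood at 797, 580.1, 367 and 197 CPM in the HTO1 members of libraries 1 to 4 and at 167, 574 and 314 CPM in the HTO2 members of libraries 1 to 3. In HTO3 it stood at 0, 6.37 and 3.73 CPM in libraries 2 to 4, and in the HTO4 members of all 4 libraries it had no UMI. Against the floor of 3 counts over the HTO4 members, it was at least 203-fold lower in HTO4 than in HTO2, with an edgeR adjusted p of 2.30e-05. Its relatives Cd209g and Cd209a had no HTO4 UMI either, and were at least 42.8-fold and 52.4-fold lower. The HTO4 animal of library 4 supplies most of the depth behind these bounds. Without it they were at least 47.6-fold for Cd209f, 10-fold for Cd209g and 12.3-fold for Cd209a.

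Ccl24, a chemokine for eosinophils, stood at 202, 356, 203 and 341 CPM in HTO1, 136, 247 and 120.0 in HTO2, 0, 19.1 and 3.73 in HTO3 and 0, 16.2, 0 and 3.64 in HTO4. The HTO1 and HTO2 values did not overlap those of HTO3 and HTO4, and edgeR gave HTO4 against HTO2 a log2 fold change -4.97 ± 0.46 (SE), adjusted p = 4.10e-06. Lyve1 stood at 489.8, 1007, 257 and 204 CPM in HTO1, 691, 488 and 175 in HTO2, 33.1, 57.4 and 254 in HTO3 and 0, 53.9, 0 and 88 in HTO4. Here 1 HTO3 animal, of library 4, lay within the range of HTO2, and the HTO4 against HTO2 change was -1.72 ± 0.53 (SE) with an edgeR adjusted p of 0.0281. Folr2, Clec10a, Mgl2, Cd38, Cp, Timd4, Ccl8, Cd209g, Hpgd and Slc40a1 were the other border markers lower in HTO4.

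Cd163, a transcript of the rule, is given as a description. It stood at 643, 640.3, 365 and 274 CPM in HTO1, 703, 982 and 443 in HTO2, 33.1, 0 and 70.8 in HTO3 and 0, 43.1, 4.46 and 15.3 in HTO4, with no overlap between the first and the last pair of hashtags. Members held a Cd163 UMI in 66.1 to 80% of cells in HTO1 and HTO2 and in 0 to 42.9% in HTO3 and HTO4. Cbr2 stood at 648, 675 and 286 CPM in HTO2 and 167, 496, 411 and 268 in HTO4. A cell without Cd163 had to hold the other 3 transcripts of the rule, Cbr2 among them, so nothing is read from these levels.

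Not all of the border program was lower in HTO4. Pf4 stood at 1364, 2049.6 and 1035 CPM in HTO2 and 2165, 1240.5, 625 and 564 in HTO4 (edgeR adjusted p = 0.551), and Ms4a7 at 432, 720.1 and 368 and 833, 782, 237 and 215 (adjusted p = 0.237). Stab1 and Dab2 had log2 fold changes of 0.26 ± 0.30 and 0.29 ± 0.31 (SE), with edgeR adjusted p of 0.581 and 0.544, so no difference was detectable for these scavenging genes. Apoe stood at 34030.4, 53565 and 24312 CPM in HTO2 and 31724, 23515, 8341 and 6948 in HTO4, a log2 fold change -0.94 ± 0.19 (SE), adjusted p = 0.00226 (edgeR).

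Of 7 class II genes tested, H2-Aa, H2-Ab1, H2-Eb1 and Cd74 fell in HTO4, and 4 passed without each library in turn. H2-Aa stood at 1911, 777, 390.4 and 633 CPM in HTO1 and 789.8, 1450.3 and 857 in HTO2, and at 0, 183, 0 and 19.6 in HTO4 (log2 fold change -3.47 ± 0.58 (SE), adjusted p = 0.000613, edgeR). Cd74 and H2-Eb1 changed by -3.11 ± 0.45 and -4.05 ± 0.57 (SE), with edgeR adjusted p of 0.000219 and 0.000197. Of the other 3, H2-DMa stood at 191, 212 and 235 CPM in HTO2 and 167, 135, 201 and 186 in HTO4 (edgeR adjusted p = 0.728). The HTO3 members of library 2, which are 4 cells, had 2150.0 CPM of H2-Aa, the highest of any animal, and did not enter the tests. At least 20 class II UMIs per 10000 were found in 25 to 40% of the HTO2 members of libraries 1 to 3 and in 14.3% and 3.12% of the HTO4 members of libraries 2 and 4.

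**Figure D4:**
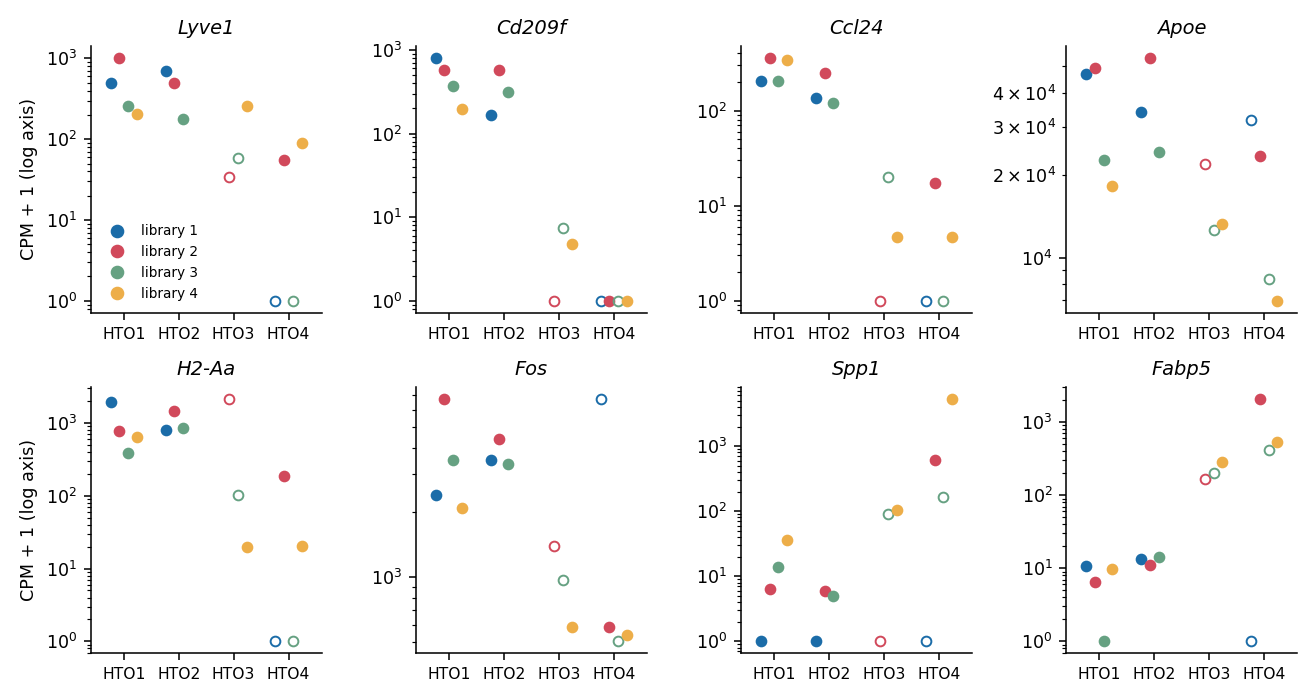
CPM with 1 added (vertical log axis) of 8 genes in the macrophages of each animal, by hashtag; colours are libraries, filled points are animals with at least 10 members and open points those with fewer. Cd209f stands at 167 to 797 CPM in HTO1 and HTO2 and at 0 in all HTO4 animals, while Spp1 reaches 5360.0 CPM in HTO4 of library 4.

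All 13 immediate early genes tested fell in HTO4, and 8 did without library 2. Fos stood at 2391, 6754, 3501 and 2087 CPM in HTO1, 3511, 4396 and 3342 in HTO2, 1389, 963 and 582 in HTO3 and 6744, 582, 499.9 and 534 in HTO4. The first HTO4 value is from 1 cell, and the other HTO3 and HTO4 values lay below all of HTO1 and HTO2 (log2 fold change -2.44 ± 0.36 (SE), adjusted p = 0.000237, edgeR). Jun and Atf3 changed by -2.79 ± 0.34 and -2.28 ± 0.57 (SE; edgeR adjusted p = 5.01e-05 and 0.00954). Klf2 and Klf4, which were higher in members than in other cells, changed by -3.26 ± 0.40 and -2.04 ± 0.47 (SE; adjusted p = 6.20e-05 and 0.00564).

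Of 12 listed genes known from disease-associated microglia 7 rose, and 1 of 12 without library 2. Spp1, which encodes osteopontin, stood at 0, 5.47, 12.8 and 35 CPM in HTO1, 0, 5.04 and 3.96 in HTO2, 0, 89.2 and 104 in HTO3 and 0, 604, 165 and 5360.0 in HTO4, and the 3 HTO4 animals with more than 1 member lay above every HTO1 and HTO2 animal (log2 fold change 8.53 ± 0.66 (SE), adjusted p = 9.57e-07, edgeR). Fabp5, a fatty acid carrier, stood at 12.3, 10.1 and 13.2 CPM in HTO2 and 0, 2093, 419.5 and 535 in HTO4 (log2 fold change 6.43 ± 0.66 (SE), adjusted p = 8.04e-06, edgeR). Gpnmb, a membrane glycoprotein of lysosomes, had no UMI in HTO2 and stood at 0, 302, 125 and 167 CPM in HTO4 (edgeR adjusted p = 0.000121). Lgals3, a galectin, and the lysosomal genes Cd63, Ctsb and Ctsd also rose, by 3.80 ± 0.65, 0.88 ± 0.26, 0.95 ± 0.22 and 1.24 ± 0.22 (SE), with edgeR adjusted p of 0.000867, 0.0256, 0.00613 and 0.00112. Over the other alternatives 5 to 8 genes of the list passed. Apoe, which is also known from these microglia and stood in another list, fell, as given above. In the other cells Fabp5 and Gpnmb were higher in HTO4 too. There Fabp5 stood at 19.4, 20.9 and 19.4 CPM in HTO2 of libraries 1 to 3 and 54.9 and 360 in HTO4 of libraries 2 and 4. Gpnmb stood at 0, 2.7 and 0.524 CPM and at 4.54 and 84.8 in the same animals.

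Cenpf, Ube2c, Mki67, Ccnb2, Top2a and Birc5, genes of dividing cells, were the 6 cell cycle genes that rose. Mki67 stood at 6.17, 0 and 30.3 CPM in HTO2 and 0, 37.8, 147 and 295 in HTO4 (log2 fold change 2.72 ± 0.86 (SE), adjusted p = 0.0317, edgeR). The cell cycle list summed to 129.6, 166 and 253 CPM in HTO2 and 83.3, 545, 1058 and 1669 in HTO4 in the members. In the other cells of the same animals it summed to 211, 178 and 149.7 CPM in HTO2 and 138, 1262, 1922 and 1771 in HTO4, so the HTO4 animals of libraries 2 to 4 were above HTO2 in both classes. The difference between the classes was -1.18 ± 0.61 (SE) for Mki67, with an edgeR adjusted p of 0.806. No cell cycle gene passed without library 4 or by DESeq2, and 11 of 12 passed without the library block. Ccr2, the receptor by which monocytes follow CCL2, stood at 0, 0 and 25.1 CPM in HTO2 and 83.3, 151, 13.4 and 36.4 in HTO4 (log2 fold change 3.07 ± 0.98 (SE), adjusted p = 0.0356, edgeR). The HTO4 value of library 3 lay within the range of HTO2, so the groups overlapped. Ly6c2, another monocyte gene, did not pass, with 0, 0, 0 and 5.82 CPM in HTO4. Vim, Tmsb10 and Lgals1, genes of the cytoskeleton and a galectin, rose by 3.73 ± 0.40, 2.79 ± 0.30 and 2.65 ± 0.31 (SE; edgeR adjusted p = 1.51e-05, 1.78e-05 and 3.96e-05). They were higher in the other cells of HTO4 too, where Vim stood at 27.1, 61.2 and 50.3 CPM in HTO2 of libraries 1 to 3 and 889 and 662 in HTO4 of libraries 2 and 4.

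Microglia markers were lower in HTO4 members for 8 of 14 genes, P2ry12, Siglech and Sall1 among them, and for 4 without library 4. Siglech stood at 796, 373 and 790.0 CPM in HTO2 and 0, 48.5, 362 and 69.8 in HTO4 (log2 fold change -3.49 ± 0.39 (SE), adjusted p = 2.29e-05, edgeR). Among members under 50 microglia-marker UMIs, 3 of 11 microglia markers were lower. The border was set with 8 of the 14 microglia markers, so nothing is read from this count. In the same fit 15 of 25 border markers, 4 of 6 class II genes and 13 of 13 immediate early genes were lower. Of 11 disease-associated genes 7 were higher. Over all 3626 genes of that fit 8.47% were lower and 5.3% higher. Without library 4 the counts were 13 of 25 border markers, 4 of 6, 13 of 13 and 6 of 11, where 5.46% of all 4576 genes were lower and 5.57% higher. In that fit HTO4 was 1 animal, of 14 members, and its spread was taken from the other hashtags. Over all members C4b, a complement gene, stood at 315, 659.7 and 203 CPM in HTO2 and 0, 10.8, 0 and 1.45 in HTO4 (log2 fold change -6.08 ± 0.62 (SE), adjusted p = 8.04e-06, edgeR). Malat1, a nuclear noncoding RNA, changed by -2.37 ± 0.21 (SE, edgeR adjusted p = 2.00e-06). Malat1 was lower in the other cells of HTO4 too, at 5579 and 4499 CPM in libraries 2 and 4. There it stood at 25139, 25513 and 21319 CPM in HTO2 of libraries 1 to 3.

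**Figure D5:**
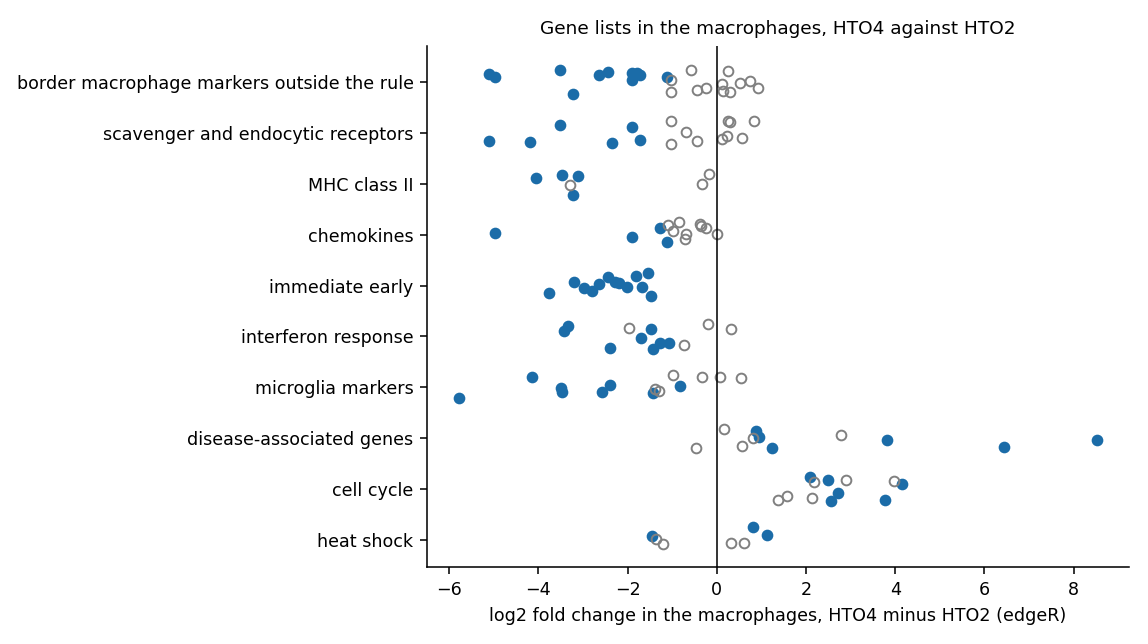
Log2 fold changes in the macrophages, HTO4 minus HTO2, from edgeR (horizontal axis), for the genes of 10 lists (rows); filled points passed an adjusted p of 0.05 and open points did not, and genes with no UMI in HTO2 or in HTO4 (Cd209f and Gpnmb among them) are left out. All 13 immediate early genes lie to the left of 0, and Spp1 lies farthest to the right at 8.53.

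The remaining contrasts gave fewer genes. HTO2 against HTO1, with both hashtags in 3 libraries, gave 14 genes (0.246%). Of these, S100a8, S100a9 and Retnlg are neutrophil markers and Plac8 and Ly6c2 monocyte markers, and in HTO2 their UMIs came almost entirely from the members of library 3, with 543 for S100a9, 115 for Plac8 and 111 for Ly6c2 against 0 or 1 in the other HTO2 animals. S100a6 and Crip1 had the same direction in each of the 3 libraries. S100a6 stood at 9.6, 0, 2.57 and 8.44 CPM in HTO1 and 18.5, 40.3 and 97.6 in HTO2 (log2 fold change 3.88 ± 0.53 (SE), adjusted p = 0.000791, edgeR). Its UMIs in the HTO2 members of libraries 1 to 3 were 3, 8 and 74, so most came from the animal with the neutrophil and monocyte RNA, whose part in the result was not tested. With edgeR 225 genes had an unadjusted p under 0.05. The count was 0 without library 3 and 0 without the library block, and DESeq2 called 4 genes. With all 4 hashtags in the demultiplexing it was 55. HTO4 against HTO3 gave 246 genes (4.32%) and HTO3 against HTO1 gave 74 (1.3%), both with 1 HTO3 animal, the 14 members of library 4, which is assumed to vary like the animals of the other hashtags. These members held neutrophil RNA, with the neutrophil gene S100a9 at 7501 CPM against 0 to 153 in HTO1, and Ngp and Camp, neutrophil granule genes, had the lowest p in both contrasts.

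Whether the members followed the other cells of the same animals was tested with a term for the difference between the classes, over 13069 genes. The fit had a term for each animal in place of the library block, so members and other cells were paired within animals. For HTO4 against HTO2, 151 genes (1.16%) differed, 11 (0.0842%) with a change more towards HTO4 in the members than in the other cells and 140 (1.07%) with one less towards it. The count was 71 by DESeq2, 24 without the animal terms, 214 with all 4 hashtags in the demultiplexing and 437 among members under 50 microglia-marker UMIs. Spp1 was among the 11 (difference 5.29 ± 0.50 (SE), adjusted p = 3.11e-09, edgeR). In other cells it stood at 137, 126 and 60.1 CPM in HTO2 and 54.8, 216, 501 and 4029 in HTO4, so in libraries 2 and 3 it was higher in HTO4 of both classes. Trem2, a lipid receptor of microglia, Lgals3 and Ccr2 had differences of the same sign, of 1.25 ± 0.28, 1.87 ± 0.44 and 2.19 ± 0.53 (SE; edgeR adjusted p = 0.00906, 0.0146 and 0.0226). The values of Trem2 in the members overlapped between the hashtags. There it stood at 1259, 901 and 1645 CPM in HTO2 and 1249, 1462, 1268 and 939 in HTO4, while in the other cells it stood at 2521, 2362 and 2532 in HTO2 and 1965, 801, 710.4 and 924 in HTO4.

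Immediate early genes differed between the classes for 11 of 13. Fos in other cells stood at 480.1, 584 and 823 CPM in HTO2 and 421, 399, 249.7 and 301 in HTO4, a smaller change than in members (difference -2.09 ± 0.34 (SE), adjusted p = 0.000112, edgeR). Class II genes differed for 4 of 10. Cd74 in other cells stood at 347, 608 and 783 CPM in HTO2 and 281, 984, 95.2 and 125 in HTO4, and the difference was -3.12 ± 0.51 (SE), adjusted p = 0.000142 (edgeR). Border markers differed for 11 of 25, of which Cp, Folr2 and Mgl2 were lower in the HTO4 members themselves, and chemokines for 9 of 15.

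Of the 9 chemokines, Ccl2 and Pf4 are given with their levels in the other cells. Ccl2, which attracts monocytes, stood at 48.9, 41.4 and 53.4 CPM in HTO2 and 132, 423, 935 and 842 in HTO4 of the other cells, and at 1598, 433 and 487 and 0, 135, 531 and 647 in the members (difference -4.92 ± 0.42 (SE), adjusted p = 1.38e-10, edgeR). In the other cells Pf4 stood at 4.69, 7.61 and 17.6 CPM in HTO2 and 9.16, 133, 82.4 and 146 in HTO4 and the border marker Dab2 at 9.38, 14.9 and 20.9 and 17.8, 133, 131 and 254, and neither passed the test within the members. The HTO4 animals of libraries 2 to 4 lay above HTO2 for all 3 genes. The differences of Pf4 and Dab2 were -4.85 ± 0.62 and -4.11 ± 0.46 (SE; edgeR adjusted p = 2.78e-06 and 1.79e-07). Ccl24, which did not pass this test, stood at 10.8, 6.34 and 7.11 CPM in HTO2 and 5.61, 2.83, 1.63 and 1.07 in HTO4 of the other cells, lower in HTO4. Cells with 1 or 2 of the rule transcripts remained among the other cells, and their part in this was not tested. The same test gave 10 genes (0.0765%) for HTO2 against HTO1. Of these, 4 were the haemoglobins Hbb-bs, Hbb-bt, Hba-a1 and Hba-a2, the oxygen carriers of red cells. Among the members their UMIs came almost entirely from the HTO1 animal of library 3, with 4108 for Hbb-bs (10552 CPM) against 0 or 1 in each of the other animals tested. In the other cells Hbb-bs stood at 283 CPM in HTO2 of library 2 and at no more than 1.12 CPM in the other animals. The test gave 55 genes (0.421%) for HTO4 against HTO3 and 58 (0.444%) for HTO3 against HTO1, and 7 of 8 neutrophil markers were among them in both.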

How the data were processed

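The deposited matrices hold raw UMI counts per gene and per hashtag and cell barcode. They were made with Cell Ranger 4.0.0 per the file headers, and Cell Ranger 3.0.1 with mm10 per the submitters' processing notes. Cells passed with 500 or more genes detected and no more than 10% of UMIs from mitochondrial genes. Hashtags were called per library with HTODemux (Seurat 5.3.0, quantile 0.99), leaving out hashtags under 1% of hashtag UMIs, and called doublets were removed; doublets within a hashtag cannot be seen this way. The members and the gene lists were chosen with earlier results of these data known. CPM are UMI sums over the cells of a class divided by their total. Genes in hashtag comparisons were tested on sums over the members of an animal (at least 10 cells) with edgeR 4.0.16 (quasi-likelihood, library as block, Benjamini-Hochberg adjustment) in R 4.3.3; DESeq2 1.42.0 was an alternative. The scripts were tested on simulated data. The 20 genes with the highest and the 15 with the lowest ratio to other cells, list genes, and up to 10 genes each way per hashtag contrast could be named. For the ratio rankings genes needed at least 50 CPM in the mean of the higher class and at least 10 UMIs in each library in that class. No hashtag number is shared between libraries by an animal, so the block is the library pool. The test of the difference between the classes had a term for each animal instead.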

Additional observations from a re-analysis of the deposited data

Results flagged for a closer look

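In 69 sets of 4 library values looked at, 6 had a value far from the other 3, where chance gives about 1 in 20. The share of HTO1 cells that met the rule reached 12.1% in library 4 while libraries 1 to 3 lay between 1.93 and 3.33%, and 2.95% when only members under 50 microglia-marker UMIs per 10000 were counted. With all 4 hashtags in the demultiplexing it was 0.472% (3 of 636 cells), and all 180 HTO1 members of that library were called doublets. Igkc stood at 10.8 CPM in the members of library 1, against 0 to 1.68 elsewhere, and Ctsk at 0.245 CPM in library 4, against 0 elsewhere. Both lie near the floor of counting. Igkc had 2 UMIs in the HTO1 and 1 in the HTO2 members of library 1. The B cell marker sum was 164 CPM in library 2, the fibroblast and pericyte marker sum 7.77 CPM in library 3, and the sum of CSF receptor and TGF-beta pathway genes 2478 CPM in library 2, each apart from the other libraries.

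Changes between hashtags differed between the macrophages and the other cells, by edgeR's test of the difference, for 10 genes (HTO2 against HTO1), 55 (HTO4 against HTO3), 58 (HTO3 against HTO1) and 151 (HTO4 against HTO2). Of the 4557 hashtag doublets, which were outside every comparison, 5.22% met the macrophage rule, against 2.29% of the kept cells.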

How the results depend on the processing

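The mean share of members was 1.06% with all 4 markers, 3.18% with 2 or more, 0.657% after thinning to 1000 UMIs and 1.29% for members under 50 microglia-marker UMIs per 10000 (chosen after seeing the data), and 1.75 to 2.38% without each library. The p of the share by hashtag was 0.0104 to 0.081 without each library, and lay above 0.05 without library 2 and without library 3. With all 4 hashtags in HTODemux, chosen for the hashtag comparisons after seeing the data, it was 0.126, and the library shares had a mean of 1.5%. Genes higher in members numbered 117 with all 4 hashtags in HTODemux and 190 to 266 without each library. Genes lower numbered 31 with all 4 markers, 16 with TMM scaling, 15 with DESeq2 size factors, 26 with no filter, 14 with hashtag singlets only, 240 for members under 50 microglia-marker UMIs, and 9 to 58 without each library.

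The same hashtag in 2 libraries is not 1 animal, so the replicate block is the library. In the test of the difference between the classes the block is the animal. With no replicate block, p for the share was 0.0154, and the counts of genes were 0 for HTO2 against HTO1, 28 for HTO4 against HTO3, 17 for HTO3 against HTO1 and 1380 for HTO4 against HTO2; the counts of differences between the classes were 0, 0, 0 and 24 in the same order.

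Counts for HTO2 against HTO1 were 4 by DESeq2, 40 with no filter, 0 with all 4 markers, 52 with at least 20 members per sum, 5 with at least 5, 3 under 50 microglia-marker UMIs, 55 with all 4 hashtags, and 0 to 22 without each library. Counts for HTO4 against HTO3 were 73 by DESeq2, 150 at quantile 0.95, 26 with at least 5 members, 467 with all 4 hashtags, and 124 to 343 without each library. Counts for HTO3 against HTO1 were 133 with no filter, 137 at quantile 0.95, 344 with at least 5 members, 205 with all 4 hashtags, and 29 to 141 without each library. Counts for HTO4 against HTO2 were 525 by DESeq2, 499 under 50 microglia-marker UMIs, 714 with all 4 hashtags, and 505 to 1125 without each library.

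Differences between the classes for HTO2 against HTO1 were 1 by DESeq2, 21 with no filter, 6 with all 4 markers, 6 with at least 5 members, 40 under 50 microglia-marker UMIs, and 9 to 26 without each library. For HTO4 against HTO3 they were 15 by DESeq2, 94 with no filter, 8 with at least 5 members, and 76 to 92 without each library. For HTO3 against HTO1 they were 11 by DESeq2, 110 with no filter, 118 with all 4 hashtags, and 94 to 105 without each library. For HTO4 against HTO2 they were 71 by DESeq2, 437 under 50 microglia-marker UMIs, and 170 to 194 without each library. The difference of Gzma for HTO2 against HTO1 turned to -1.33 with all 4 markers, and that of Chil3 lay between -0.0277 without library 3 and 9.97 without library 2. Of 649 single-gene values of these differences over the alternatives 497 kept their call and 150 lost it; 529 of 591 calls within the members and 467 of 490 ratios to other cells kept theirs. HTO3 contrasts could not be fitted without library 4, with all 4 markers, with at least 20 members per sum or under 50 microglia-marker UMIs. The cause of these changes was not tested. Small sums of 14 to 94 members per animal, apart from HTO1 of library 4, limit what low genes can show.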
